A study of Arabidopsis thaliana with 12 samples.

Results

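The genes described here are 4 nuclear genes for chloroplast proteins of Arabidopsis thaliana, 3 that encode stromal enzymes switched by thioredoxin and 1 that encodes a thioredoxin reductase. The enzymes are the NADP-dependent malate dehydrogenase (NADP-MDH, AT5G58330), phosphoribulokinase (PRK, AT1G32060) and sedoheptulose-bisphosphatase (SBPASE, AT3G55800). The reductase is NTRC (AT2G41680), the NADPH-dependent thioredoxin reductase C. They were picked by locus: a probe had to be annotated to that gene and no other, and each gene had 1 such probe (2697, 3151, 1517 and 1759). They make up 4 of the 690 loci that had a probe of their own among the 3439 probes of the array, and all 4 probes passed the filter on low values, as did 3207 of the 3439.

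Transcript levels had been measured from total RNA of wild-type plants of ecotype Columbia 0 in 12 samples. The 6 recovered samples (HLrec_2d) came from plants that had been moved to 1000 µE for 1 h and then returned to 80 µE for 48 h. The 6 control samples (0h) came from plants kept at 80 µE. No label gives plant age, the organ harvested, or a control that was held for the same 48 h, so the effects of the light treatment and of elapsed time cannot be told apart. The labels also do not say whether samples of a group are separate plants or cultures, and the spread between them, which is all that the p-values measure, may be technical.

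In the light, photosystem I reduces ferredoxin, which passes electrons through a reductase to thioredoxins, and these open disulphide bonds in target enzymes of the stroma. PRK and SBPase are both steps in the regeneration of the carbon dioxide acceptor in the Calvin-Benson cycle. NADP-MDH uses surplus NADPH to make malate for export. These enzymes are inactive in the dark and become active when thioredoxins open such bonds. NTRC carries a reductase and a thioredoxin domain in 1 polypeptide, draws on NADPH, and is best known for keeping 2-Cys peroxiredoxins reduced. That control acts on the proteins, whereas the array reads only their transcripts.

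The arrays differed in ways that touch every value below. Deposited intensities are linear, unitless and between 0 and 100, and the sources used here do not say how they were corrected or scaled. Their log2 median lay between -2.35 and -1.13, and recovered 1, 2, 5 and 6 had the highest medians of the 12. The values were therefore quantile-normalised, and log2 values below are on that scale unless called deposited. Neighbouring replicate numbers of a group (1 and 2, 3 and 4, 5 and 6) correlated across probes at 0.850 to 0.937, against 0.652 to 0.793 for other samples of a group, and for 12 of 12 samples the most similar sample was that neighbour. Differences between groups are therefore given with 6 samples per group and with neighbours averaged to 3 values per group. The 3 markers of photosynthetic tissue with their own probe, LHB1B2, PSAN and PSBW, lay above the 97th percentile of the array in all samples. The markers set for guard cells, phloem and epidermis had no probe of their own, so the makeup of the tissue was not tested. In a bulk extract, a lower signal from fewer cells of a type and one from less RNA per cell cannot be told apart.

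NADP-MDH, the gateway enzyme of the malate valve, was higher after recovery in each of the 6 same-numbered comparisons, and it was the only member called in the fit with 6 samples per group. On the deposited scale its intensity was 1.49 at the lowest, 2.58 at the median and 4.00 at the highest in recovered samples, against 0.308, 0.397 and 0.861 in control samples. All recovered samples were thus above all control samples, with control 2 the highest of its group. After normalisation it averaged 1.32 ± 0.70 in recovered samples and -0.99 ± 0.37 in control samples on the log2 scale (SD, n = 6 each). The difference of 2.31 (SE 0.33), or 4.94-fold with a 95% interval of 3.01 to 8.10, had an adjusted p of 0.00378 in limma with Benjamini-Hochberg adjustment over all 3207 probes. In that fit 2.15% of all tested probes were called, 0.873% as higher and 1.28% as lower (28 and 41 probes, which became 29 and 6 with the deposited scaling kept and 14 and 53 with array medians aligned). Groups that did not overlap, with recovered samples on top, occurred in 1.81% of probes, and a higher value in 6 of 6 same-numbered comparisons in 8.61%.

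The position of the NADP-MDH probe within each array does not depend on the scaling of the arrays. Its signal stood between the 91.3rd and the 97.0th percentile of all probes in recovered samples and between the 63.7th and the 82.1st in control samples. The recovered samples split into a low and a high set. Recovered 1, 3 and 4 lay at 0.65, 0.75 and 0.65 on the log2 scale, and recovered 2, 5 and 6 at 1.86, 1.94 and 2.04. Recovered 1 and 2 are neighbours and still differed by 1.21, and control 1 and 2 differed by 0.92, at -1.18 and -0.25. In both groups number 2 was the higher of these neighbours, and the difference between recovered and control was 1.83 for number 1 and 2.12 for number 2.

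The size of the NADP-MDH difference varied among the pairs of neighbours, and this variation was not tested. Averaged over numbers 1 and 2 NADP-MDH was 3.93-fold higher, over 3 and 4 it was 3.39-fold higher, and over 5 and 6 it was 9.06-fold higher. All 3 recovered averages lay above all 3 control averages, which was so for 5.21% of probes. The array medians moved alongside in part: on the deposited log2 scale, recovered minus control was 0.69 and 0.72 for numbers 1 and 2, -0.14 and -0.12 for 3 and 4, and 1.10 and 1.08 for 5 and 6. In numbers 3 and 4, where the medians of recovered and control arrays were closest, deposited NADP-MDH values were 4.11 and 3.70 times as high in recovered as in control samples. The part of the array shift in the size of the other numbers was not tested. With neighbours averaged to n = 3 per group the log2 difference of 2.31 had an SE of 0.47 and a 95% interval of 1.22 to 3.39, and limma gave an adjusted p of 0.657 (0.00118 without adjustment). In that fit 0 of 3207 probes (0%) were called, with 162 at an unadjusted p under 0.05. A limma fit with neighbours as a random block called 1 probe and gave NADP-MDH an adjusted p of 0.181. Each of the 4 scalings called NADP-MDH, with a log2 difference from 1.97 with array medians aligned to 2.52 with the deposited scaling, where the median of all probes was 0.47. The call ended without numbers 5 and 6, where the difference was 1.87 (adjusted p = 0.138 in limma).

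**Figure D1:**
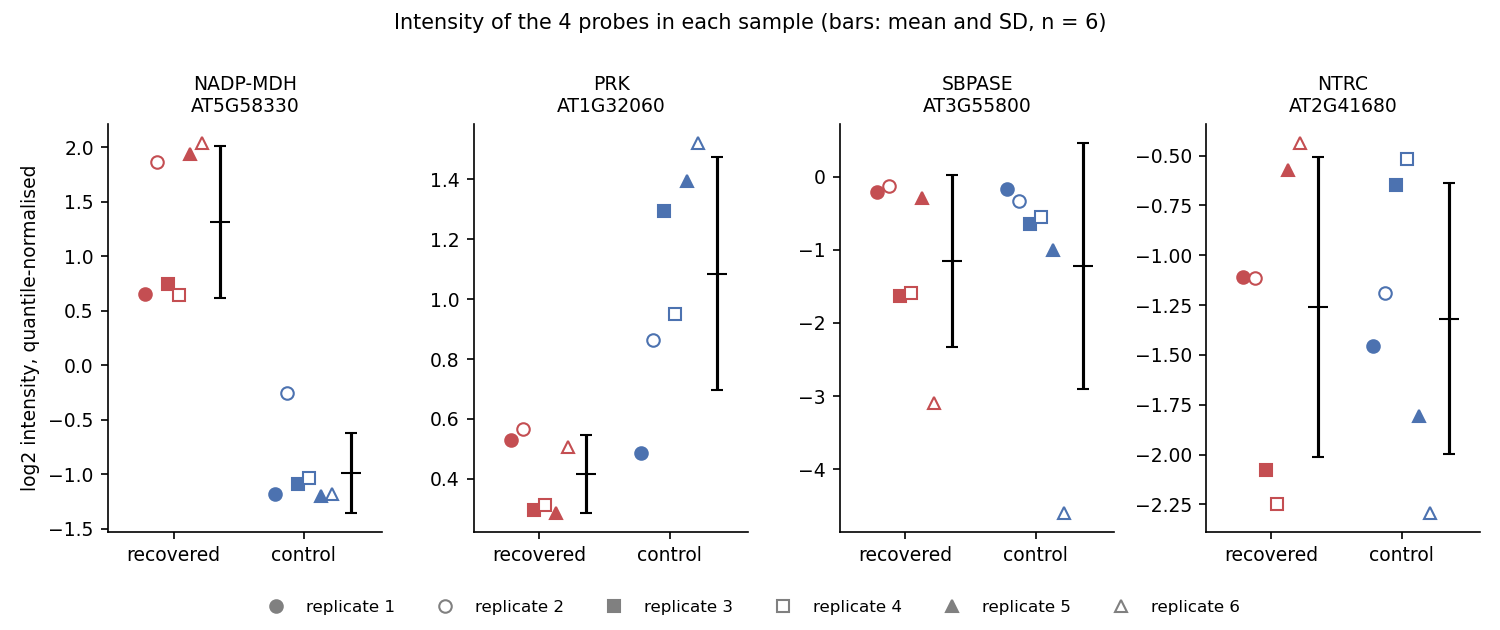
Log2 intensity after quantile normalisation (vertical axis, one scale per panel) of the 4 probes in the 6 recovered and the 6 control samples. Symbols mark replicate numbers, with neighbouring numbers sharing a shape, and bars give the mean and SD (n = 6). NADP-MDH recovered samples lie at 0.65 or more and its controls at -0.25 or less, while the other genes overlap.

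PRK, the kinase that makes ribulose bisphosphate, had a mean below that of the controls, but the difference did not pass the threshold. Its deposited intensity was 1.18 at the lowest, 1.43 at the median and 1.59 at the highest in recovered samples, against 1.51, 2.14 and 2.69 in control samples. The overlap came from 1 sample: control 1, the lowest control, lay within the recovered range, and the other 5 controls lay above it. The normalised log2 values averaged 0.42 ± 0.13 in recovered samples and 1.08 ± 0.39 in control samples (SD, n = 6 each). The log2 difference was -0.67 (SE 0.23, 95% interval -1.16 to -0.18), with an adjusted p of 0.146 in limma (0.0116 without adjustment). An unadjusted p under 0.05 was found for 18.2% of all tested probes.

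The recovered PRK values were tightly grouped. They ran from 0.29 to 0.57 on the log2 scale, an SD of 0.13 where the median SD of all tested probes was 0.65 in recovered samples. In control samples PRK had an SD of 0.39 where the median of all probes was 0.73. Its probe was bright, between the 88.4th and the 95.6th percentile of the array in all samples. The markers LHB1B2, PSAN and PSBW, brighter still, had SDs of 0.20, 0.49 and 0.16 in recovered samples. Whether PRK varied less than probes of like intensity was not tested. Recovered PRK values averaged 0.55 for numbers 1 and 2, 0.31 for 3 and 4 and 0.40 for 5 and 6, against 0.67, 1.12 and 1.46 for the same numbers in control samples. After normalisation the pairs of neighbours thus differed more among controls, and recovered minus control was -0.13, -0.82 and -1.06 in turn. By single numbers, PRK was lower in 5 of 6 comparisons, and number 1 stood at 0.05. On deposited values, recovered over control was 1.03 and 0.85 for numbers 1 and 2 and 0.44 and 0.56 for 3 and 4. For 5 and 6 it was 0.63 and 0.62, so the lowest deposited ratios lay in 3 and 4. Which pair differed most thus depended on the scaling. After normalisation all 3 recovered averages lay below all 3 control averages, as in 7.36% of probes. With n = 3 averages per group, limma gave an adjusted p of 0.838 (0.145 without adjustment), with a 95% interval of -1.62 to 0.29. The size depended on the scaling, from -0.60 with deposited values to -1.15 with array medians aligned (adjusted p = 0.0725).

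SBPASE, whose product dephosphorylates sedoheptulose bisphosphate in the same cycle, had group means 0.06 apart and the widest scatter of the 4. Its deposited intensity was 0.186 at the lowest, 0.601 at the median and 1.11 at the highest in recovered samples, against 0.00703, 0.581 and 0.913 in control samples. The ranges overlapped almost fully. The normalised log2 values averaged -1.15 ± 1.17 in recovered samples and -1.22 ± 1.68 in control samples (SD, n = 6 each). The log2 difference of 0.06 had an SE of 0.75, and 94.0% of all tested probes had a smaller one. Its 95% interval, from 0.338-fold to 3.22-fold, leaves room for a change of either sign (adjusted p = 0.974, limma). With neighbours averaged, the log2 interval was -1.69 to 1.82 (adjusted p = 0.988, limma).

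Number 6 set much of that scatter. Recovered 6, at -3.09, was the lowest of its group, where recovered 5 was at -0.29. The lowest control was number 6 as well, at -4.60, while the other 5 controls lay between -1.00 and -0.17. In control 6 the probe stood at the 12.2nd percentile of its array, near the log2 floor of -5.07, so how far it lay below the other controls is uncertain. Each sample numbered 6 thus lay well below its neighbour numbered 5, by 2.80 in the recovered and 3.60 in the control group. Without control 6 the log2 difference was -0.62 (adjusted p = 0.554, limma), and without number 6 of both groups, an alternative chosen after seeing the data, it was -0.23 (adjusted p = 0.813). Recovered 3 and 4, at -1.63 and -1.59, lay below controls 3 and 4 at -0.65 and -0.55.

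NTRC, the only member that reduces thioredoxin domains and is not itself a Calvin-Benson or malate-valve enzyme, also had group means 0.06 apart, with no call. Its deposited intensity was 0.132 at the lowest, 0.660 at the median and 0.905 at the highest in recovered samples, against 0.131, 0.390 and 0.632 in control samples. The normalised log2 values averaged -1.26 ± 0.75 in recovered samples and -1.32 ± 0.68 in control samples (SD, n = 6 each). The log2 difference was 0.06 (SE 0.40, adjusted p = 0.956, limma), with a 95% interval from 0.571-fold to 1.90-fold. With neighbours averaged, the log2 interval was -1.30 to 1.42 (adjusted p = 0.987, limma).

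Behind this mean lay differences of opposite sign in different pairs of neighbours. In numbers 3 and 4 the recovered samples were at -2.07 and -2.25, below controls 3 and 4 at -0.65 and -0.52. In numbers 5 and 6 the order was the other way, with recovered samples at -0.57 and -0.43 and controls at -1.80 and -2.29. Numbers 1 and 2 differed little, at -1.11 and -1.11 in recovered and -1.45 and -1.19 in control samples. Averaged over neighbours, NTRC was 1.16-fold the control level in 1 and 2, 0.335-fold in 3 and 4, and 2.92-fold in 5 and 6. Neighbours themselves were close, with a mean gap of 0.10 in the recovered and 0.30 in the control group, where the medians of all probes were 0.39 and 0.44.

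SBPASE shared the signs of NTRC over the 3 pairs of neighbours, with log2 differences of 0.08, -1.01 and 1.11. For NTRC they were 0.21, -1.58 and 1.54. The SBPASE difference in 5 and 6 averages 0.72 for number 5 and 1.51 for number 6, where control 6 lay near the floor. Its size is therefore uncertain. Over the 12 samples SBPASE and NTRC correlated at r = 0.403 (Spearman's rho 0.301). A difference of 1 or more in 1 pair of neighbours and of -1 or less in another was found for 9.57% of all tested probes, and differences of both signs for 64.1%. The shift in array median given above was also lowest in numbers 3 and 4 and highest in 5 and 6, and its part in these 2 patterns was not tested. Without numbers 3 and 4 the log2 difference of NTRC was 0.88 (adjusted p = 0.105, limma), and without 5 and 6 it was -0.68 (adjusted p = 0.468). Neither NTRC nor SBPASE has a settled sign.

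**Figure D2:**
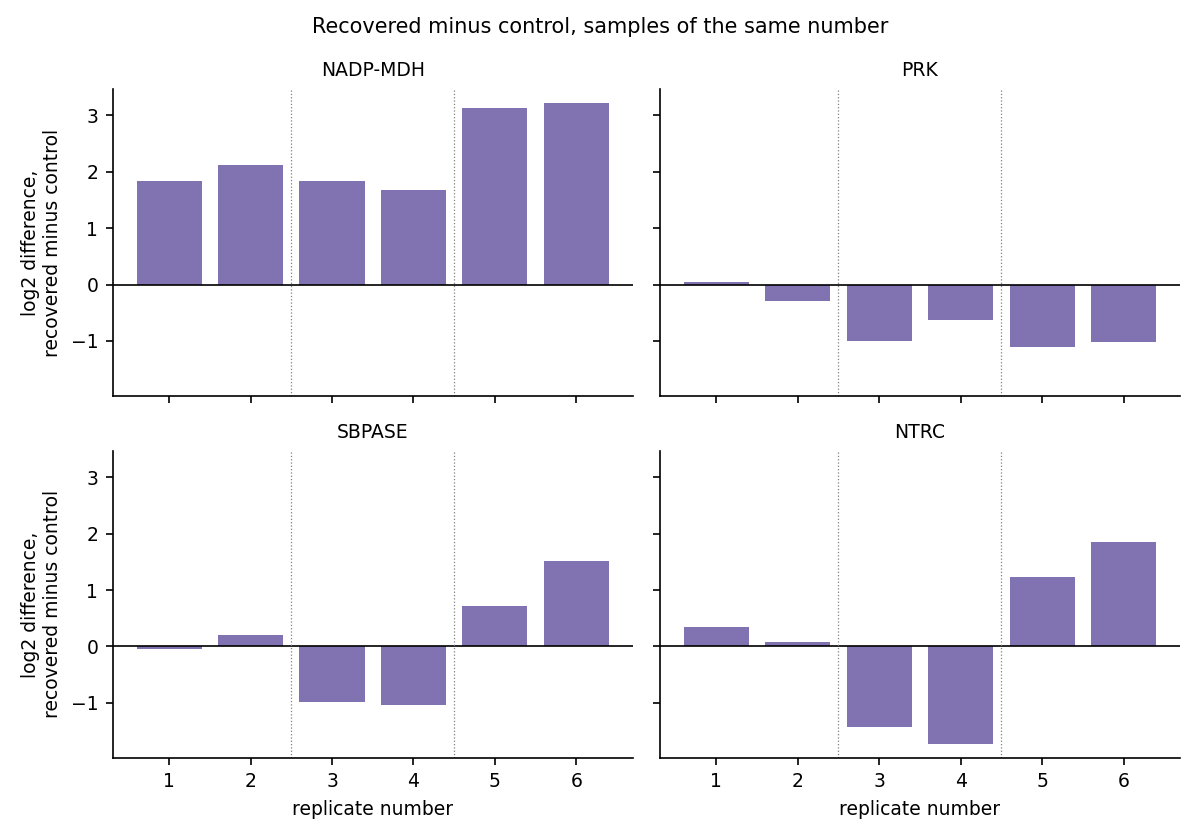
Log2 difference between the recovered and the control sample of the same replicate number (vertical axis, shared) for each of the 4 genes. Dotted lines separate the pairs of neighbouring numbers. NADP-MDH is above 0 for all 6 numbers, PRK is below 0 for numbers 2 to 6, and SBPASE and NTRC are below 0 in numbers 3 and 4 and above 0 in 5 and 6.

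Against the rest of the array, the members spread from one end of the range to the other. The median absolute log2 difference of all 3207 tested probes was 0.45. That of NADP-MDH was larger than in 99.6% of probes and that of PRK larger than in 68.0%, whereas SBPASE exceeded 7.14% and NTRC 6.80%. With 6 samples per group, 1 of the 4 genes was called higher and 0 lower, where 0.873% and 1.28% of all probes were. With neighbours averaged or as a random block 0 of the 4 were called, where 0 and 1 of all 3207 probes were. The members were chosen with earlier results of these data known, so these shares are no test of the 4 genes as a group.

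**Figure D3:**
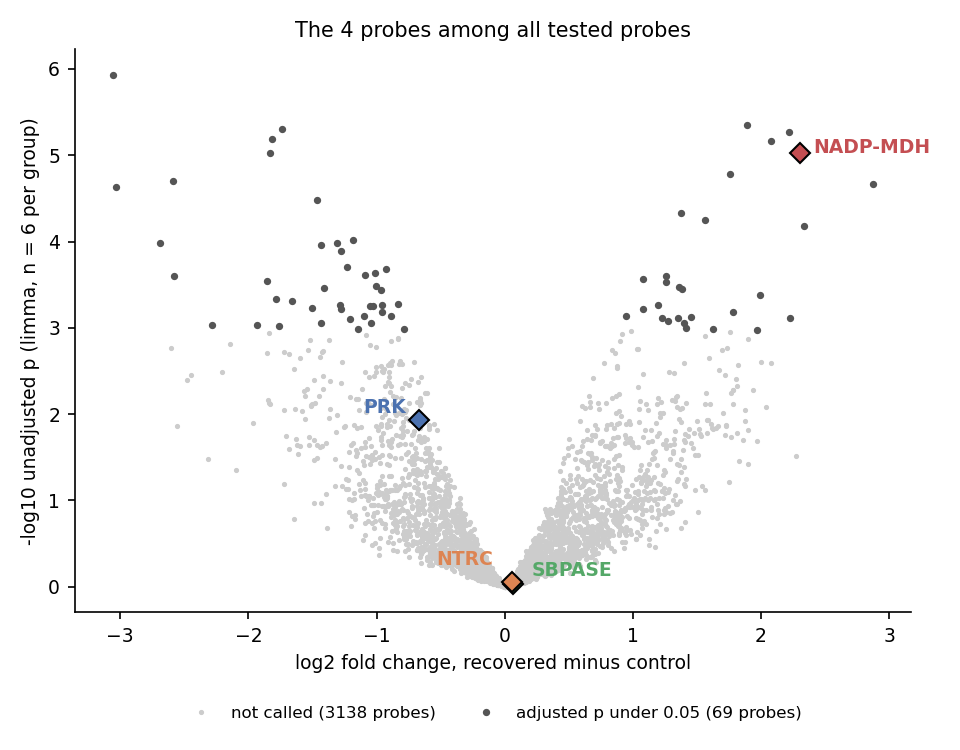
Log2 difference between recovered and control samples (horizontal axis) and -log10 of the unadjusted limma p (vertical axis) for the 3207 tested probes, with the 4 genes as diamonds. Dark points are the 69 called probes. NADP-MDH lies among them at 2.31, PRK at -0.67 is not called, and SBPASE and NTRC coincide near 0.

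Few other genes of the thioredoxin network could be read. Of 84 further loci listed for the Calvin-Benson cycle, the thioredoxin and peroxiredoxin systems, malate metabolism and other redox-controlled plastid enzymes, 3 had a probe of their own, and 6 more were matched only by probes that name several genes. All 3 were tested, with 0 called higher and 0 called lower, where 2.15% of all tested probes were called, so a count over 3 genes says little about the network. With neighbours averaged their adjusted p lay between 0.846 and 0.984 in limma. CHLM, the magnesium protoporphyrin methyltransferase of chlorophyll synthesis, had log2 values of -2.76 at the lowest, -2.09 at the median and -0.85 at the highest in recovered samples, against -3.90, -2.28 and -2.16 in control samples. Its log2 difference was 0.65 (SE 0.38, adjusted p = 0.399, limma), the groups overlapped, and without control 6 it was 0.39 (adjusted p = 0.582). AT2G04700, from the list of thioredoxins, thioredoxin reductases and peroxiredoxins, differed by -0.08 (SE 0.25, adjusted p = 0.898). AT3G52960, from the same list, differed by 0.34 (SE 0.62, adjusted p = 0.811), and 3 of its recovered samples lay between -2.36 and -2.33 while the other 3 lay between 0.14 and 0.29. The split ran through neighbours, with recovered 1 at -2.33 and recovered 2 at 0.29. Control samples of AT3G52960 were spread over a similar range, from -2.28 to 0.18. Without control 6 its difference was 0.17 (adjusted p = 0.918, limma), and leaving out that sample for these listed genes was chosen after seeing the data. The median of the 3 log2 differences was 0.34, against 0.01 for all tested probes. Of the 24 listed Calvin-Benson loci and the 15 of malate metabolism, none had a probe of its own, so PRK, SBPASE and NADP-MDH were the only readings of those pathways from a probe with 1 gene among the loci listed.

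Among the 638 other tested probes with 1 gene, those most like each member were ranked by Pearson's r of log2 values over the 12 samples, which share arrays and groups. AT3G13150 was most like NADP-MDH (r = 0.917, Spearman's rho 0.825), followed by AT4G39760 (r = 0.894) and chr31 (r = 0.880), and these differed between groups by 1.56, 1.26 and 0.99 (adjusted p = 0.0120, 0.0297 and 0.0503 in limma). PRK was closest to AT3G56290 (r = 0.876, rho 0.811), AT3G09050 (r = 0.869) and AT1G62250 (r = 0.853), which differed by -1.83, -1.00 and -0.60 (adjusted p = 0.00378, 0.0332 and 0.110). For these genes the likeness includes the difference between the groups. With neighbours averaged none of these 6 was called (adjusted p from 0.699 to 0.838 in limma), nor with neighbours as a random block (0.0694 to 0.489). Of all 3207 tested probes, 0 were called in the first of these fits and 1 in the second, so these counts say little about the 6 genes. SBPASE was closest to AT5G03900 (r = 0.933, rho 0.879), AT4G13220 (r = 0.881) and AT1G03660 (r = 0.822, rho 0.483). NTRC was closest to AT4G16610 (r = 0.889, rho 0.895), AT2G46850 (r = 0.885) and AT1G62150 (r = 0.849). None of these last 6 genes was called with 6 samples per group (adjusted p from 0.582 to 0.996 in limma), where 2.15% of all tested probes were. With neighbours averaged their adjusted p lay between 0.877 and 0.998. Over the 6 averages of neighbours, r lay between 0.722 for AT1G03660 with SBPASE and 0.956 for AT4G39760 with NADP-MDH.

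**Figure D4:**
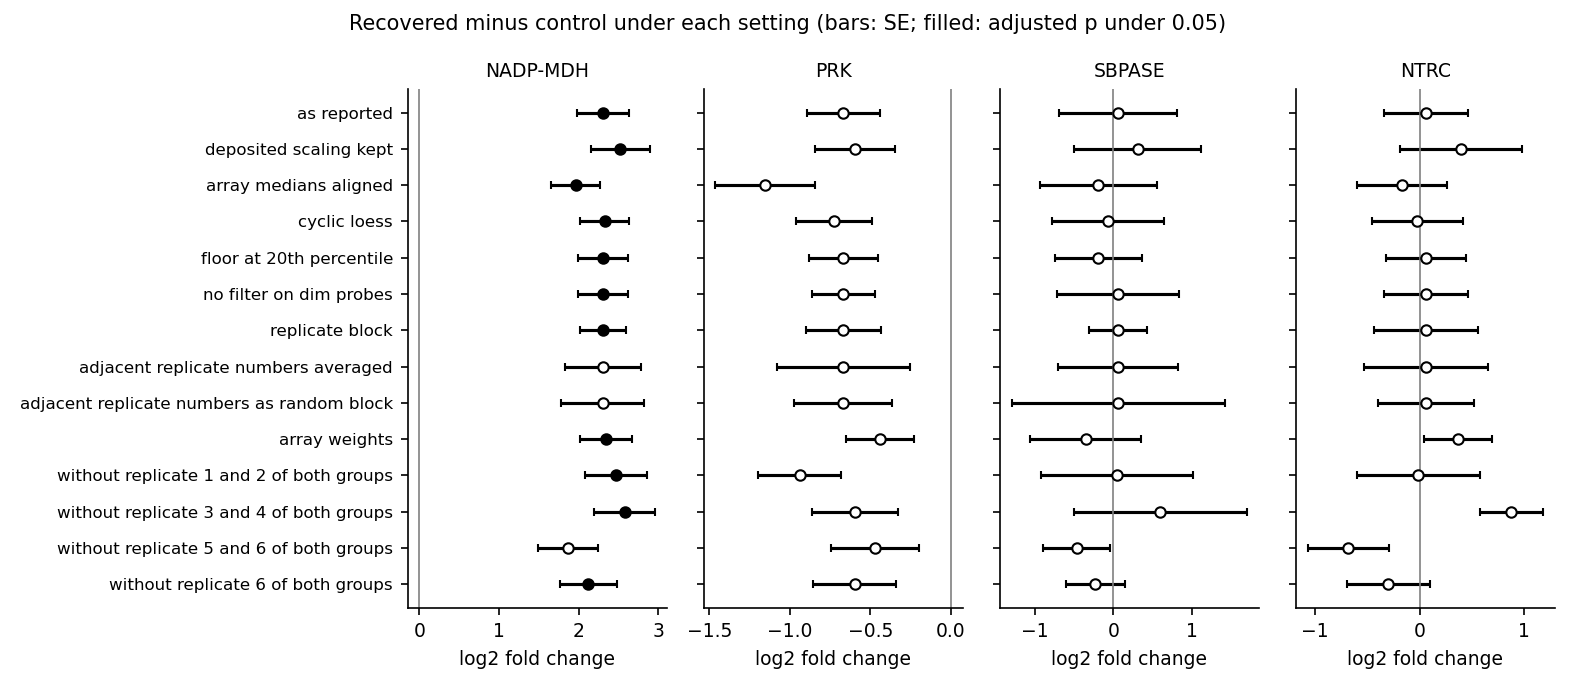
Log2 difference between recovered and control samples (horizontal axis, one scale per panel) of each gene under each processing setting (rows), with SE bars. Filled points have an adjusted p under 0.05 in limma. NADP-MDH stays between 1.87 and 2.58, PRK stays below 0 without a call, and SBPASE and NTRC lie on both sides of 0.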

How the data were processed

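Each probe has 1 deposited intensity per sample, on a linear scale. In 11 of 12 samples the deposited maximum was 100. No label or header states the background correction, scaling or averaging of spots, so distance from background is unknown, and the number of arrays limits the precision. Groups and replicate numbers came from the sample titles. Values were quantile-normalised between arrays, floored at 0.0298 (the 5th percentile of positive values), and log2-transformed. Probes above the floor in at least 6 of 12 samples were kept. Groups were compared over all 3207 such probes with limma 3.58.1 in R 4.3.3 (two-sided, recovered minus control, with calls made below 0.05 after Benjamini-Hochberg adjustment), after the procedure had been tested on simulated data. The simulated samples were drawn independently of each other, so that test did not cover the likeness of neighbouring numbers. Per the platform annotation, 692 probes have 1 gene, 870 several and 1877 none. Symbols follow RefSeq for TAIR10.1, in which 2 of the 692 were not matched. Genes were matched by locus, and near-identical relatives may share a probe's signal. No coordinates or sequences are printed, since the array's build and probe sequences were not used here.

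Named were the 4 members, every listed pathway locus with its own probe, and the 3 probes most like each member. The members, lists and alternatives were chosen with earlier results of these data known. The replicate numbers were taken to pair the samples in the same-numbered comparisons and in the fit with the replicate number as a block. The reason was that deviations from group means of same-numbered samples correlated at 0.111 to 0.477 in all 6 pairs. All other fits left the pairing out. The pairing comes from the titles and the data, as no label names a shared plant pool or day. Alternatives were other scalings (deposited, medians aligned, cyclic loess), a floor at the 20th percentile, no filter, the replicate number as a block, neighbouring numbers averaged or as a random block, array weights, and leaving out samples.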

Additional observations from a re-analysis of the deposited data

Results flagged for a closer look

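In 14 groups of 6 values (4 members and 3 listed genes), 3 held a sample far from the rest, where the gap to its nearest neighbour took up most of the range of its group. Chance gives about 1 in 20 groups, or 0.7 of 14, only if the 6 values of a group are independent and normally distributed. The closeness of neighbouring numbers puts independence in doubt, and the distribution was not tested. The value of NADP-MDH in control 2 was -0.25, while the next highest control had -1.04, and without that sample its log2 difference was 2.45 in place of 2.31. In control 6, SBPASE had a value of -4.60, near the log2 floor of -5.07, while the next lowest control had -1.00. The same sample had -3.90 for CHLM, while the next lowest control had -2.74. Without control 6 the log2 difference was -0.62 for SBPASE in place of 0.06, and 0.39 for CHLM in place of 0.65. Thus 2 of the 3 cases come from the same array.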

How the results depend on the processing

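NADP-MDH was higher and PRK lower in recovered samples in each of 25 alternatives run. NADP-MDH passed the threshold in 22 of them, and its call ended with neighbours averaged (2.31, adjusted p = 0.657), with neighbours as a random block (2.31, adjusted p = 0.181) and without numbers 5 and 6 (1.87, adjusted p = 0.138). Since its groups do not overlap, leaving out samples could not turn its direction. PRK passed in none, with adjusted p from 0.0725 to 0.838. SBPASE, at 0.06, fell below 0 with array medians aligned (-0.19), cyclic loess (-0.073), the floor at the 20th percentile (-0.19), array weights (-0.35), without numbers 5 and 6 (-0.46) and without number 6 (-0.23), and without a single sample it ran from -0.62 to 0.45. NTRC, also at 0.06, fell below 0 with array medians aligned (-0.17), cyclic loess (-0.022), without numbers 1 and 2 (-0.016), without 5 and 6 (-0.68) and without number 6 (-0.30), and without a single sample it ran from -0.14 to 0.26. These reversals were of values that were never called, and their cause was not tested. With the replicate number as a block no member's call changed, NADP-MDH had an adjusted p of 0.0166 in limma, and 82 probes were called (40 higher and 42 lower) in place of 69 (28 higher and 41 lower). Without a single sample NADP-MDH ran from 2.16 to 2.45 and PRK from -0.79 to -0.58. The number of called probes was 35 with the deposited scaling (29 higher and 6 lower, with the median of all probes at 0.47), 67 with medians aligned (14 higher and 53 lower), 128 with the higher floor, 104 without a filter, 230 with array weights, 0 with neighbours averaged and 1 with them as a random block. Both of these count neighbouring numbers as related samples, and the labels do not say whether neighbours are repeat readings. It was 15 without numbers 1 and 2, 333 without 3 and 4, 2 without 5 and 6, 10 without number 6, and 20 to 59 without a single sample. Leaving out number 6 was chosen after seeing the data.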
